A study of Mus musculus with 14 samples.

Results

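The potassium channel genes are the mouse genes whose symbols begin with Kcn and follow the pattern of channel subunit names, a family label of letters and then a number. Kcnk9 was not included. Searching the deposited gene tables for this pattern gave 91 genes, and all 91 matched a gene of the GENCODE M21 annotation. By comparison, 18722 annotated genes had an assembled transcript in at least 1 library. The genes were picked by the pattern of their symbols, and this set was chosen with earlier results of these data known. Of the 91, 76 encode pore-forming subunits in 12 classes and 15 encode auxiliary subunits in 4 classes.

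The levels come from RNA sequencing of the hippocampus of 14 C57BL6 mice aged 30 days, with 1 library per mouse. The mice were wild type (labelled KMT2D+/+) or carried 1 gene-trap allele of Kmt2d (labelled KMT2D+/bGeo, here called mutant). Kmt2d encodes a histone H3 lysine methyltransferase, and the labels name no tissue-specific driver for the allele. Each genotype received either TAK-418, which blocks LSD1 (gene Kdm1a), an enzyme that removes methyl groups from histones, given daily by oral gavage at 1 mg/kg/day in methylcellulose, or the methylcellulose vehicle alone. The mice were dosed for 2 weeks, starting when they were 2 weeks old. Under vehicle there were 3 libraries of each genotype, and under TAK-418 there were 5 of wild types and 3 of mutants. All 4 groups share the strain, the age and the gavage. The series text speaks of 3 to 4 mice in a group, whereas the labels put 5 libraries in the wild-type TAK-418 group.

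Potassium channels let potassium ions leave or enter cells, and so set the resting potential, end action potentials and control how often a neuron fires. Voltage-gated Kv channels open when the membrane depolarizes. Calcium-activated BK and SK channels open after calcium entry, inward rectifiers hold the resting potential or answer G proteins and ATP, and tandem-pore-domain channels carry leak currents. Auxiliary subunits such as the Kv beta, KChIP, KCNE and BK beta proteins change the gating and the traffic of pore subunits. In the hippocampus, Kv4 channels with KChIP partners shape dendritic signals of pyramidal cells, Kv7 channels carry the M current, Kv3 channels allow interneurons to fire fast, and Kir4.1 clears potassium through astrocytes.

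Pore subunits share a short selectivity filter, known for a glycine, an aromatic residue and a glycine in a row. It was looked for in the reading frame of the longest annotated coding sequence of each gene, as 5 codons in a row: any codon, NTN, GGN, then TAN in the first pattern or TTN in the second, and GGN, where N is any base. Either pattern was present in 74 of the 76 pore-forming members and in 0 of the 15 auxiliary members. Over all 21584 coding genes, 1144 (5.30%) held one of them. The first pattern was present in 58 pore-forming members, including all of the Kv1, Kv2, Kv3, Kv4, Kv7, silent Kv and SK classes. The second was present in all 8 EAG, ERG and ELK members and all 3 Slo2 and Slo3 members, which held no copy of the first. In the tandem-pore-domain class, 7 of 13 members held both. The 2 pore-forming members with neither were Kcnk1 and Kcnk7. The patterns also fix the codon before the first glycine, and TTN allows leucine too. A gene without a match may therefore still hold the filter.

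The match in the most abundant member of 9 of the 12 pore classes is printed here, because it is the feature that separates the pore-forming members from their partners. For the tandem-pore-domain class Kcnk2 is shown, since Kcnk1 has no match. For the SK class Kcnn1 is shown in place of Kcnn2. Each line gives 45 bases of coding exon from the GENCODE M21 transcripts (GRCm38), with the 15 matching bases in capitals.
Kcnk2, tandem-pore-domain, chr1:189258876-189258898 and chr1:189295594-189295615, minus strand: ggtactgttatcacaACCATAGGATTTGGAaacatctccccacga
Kcnj3, inward rectifier, chr2:55437612-55437656, plus strand: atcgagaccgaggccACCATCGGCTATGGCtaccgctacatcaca
Kcnd2, Kv4, chr6:21217391-21217413 and chr6:21714135-21714156, plus strand: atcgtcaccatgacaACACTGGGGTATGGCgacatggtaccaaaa
Kcna1, Kv1, chr6:126642213-126642257, minus strand: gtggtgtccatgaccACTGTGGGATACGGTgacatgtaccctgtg
Kcnma1, BK alpha, chr14:23528398-23528442, minus strand: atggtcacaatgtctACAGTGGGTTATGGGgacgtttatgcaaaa
Kcnn1, SK, chr8:70850642-70850686, minus strand: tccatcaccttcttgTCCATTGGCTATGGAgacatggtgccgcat
Kcnh3, ELK, chr15:99232914-99232958, plus strand: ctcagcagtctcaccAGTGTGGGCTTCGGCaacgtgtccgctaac
Kcnv1, silent Kv, chr15:45109274-45109318, minus strand: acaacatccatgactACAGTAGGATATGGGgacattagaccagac
Kcnt2, Slo2, chr1:140425263-140425307, plus strand: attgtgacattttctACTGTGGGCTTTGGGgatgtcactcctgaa
The matches of Kcnk2 and Kcnd2 run across an exon junction, and the other 7 lie in a single exon.

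The step between abundance values implies a relative depth of 35.1 to 60.0 M for 13 libraries, and of 168 M for replicate 1 of wild-type TAK-418. Between 33819 and 48428 transcripts were assembled per library, and 78.2% to 90.2% of them could be assigned to a gene. The level of a gene below is the summed abundance of its transcripts after scaling. The abundance has no stated unit, and its steps imply a value per transcript length and per depth. On that reading levels of different genes are set side by side, although a gene assembled in pieces has a higher sum. A gene at 0 has no assembled transcript, which is not a measurement of no expression. Kmt2d was at 12.5 to 17.99 in wild-type and at 9.34 to 14.6 in mutant libraries, and the ranges overlap (log2 difference over both treatments -0.26 ± 0.11, SE, limma, Benjamini-Hochberg adjusted p = 0.847). The labels do not say where the trap lies, so this level does not test the genotype labels. Summed markers of hippocampal excitatory neurons were at 2197 to 2512 in the 14 libraries. Summed choroid plexus markers were at 7268 in wild-type vehicle replicate 3 and 5875 in mutant vehicle replicate 1, against 88.6 to 1109.5 in the other 12. Those 2 libraries stand apart, and values of Kcne2, Kcnj13, Kcnj10, Kcnj16 and Kcnk10 are given below with and without them. In bulk tissue, fewer cells of a type and less RNA per cell cannot be told apart.

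Of the 91 genes, 80 were listed in at least 1 library and 63 in all 14. The mean level was 10 or more for 36 genes, 1 to 10 for 31 and under 1 for 13. The 10 highest genes held 53.7% of the summed level. The levels of all members summed to 1560.3 ± 30.7 and 1555 ± 46.8 under vehicle (wild types, then mutants; SD, n = 3 each). Under TAK-418 the sums were 1609 ± 33.5 for wild types (SD, n = 5) and 1554 ± 5.50 for mutants (SD, n = 3). Among the 67 members with a mean of 1 or more, 44 (65.7%) had an SD of log2 level under 0.2 over the 14 libraries. The same held for 63.1% of the 13921 genes of that level.

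**Figure D1:**
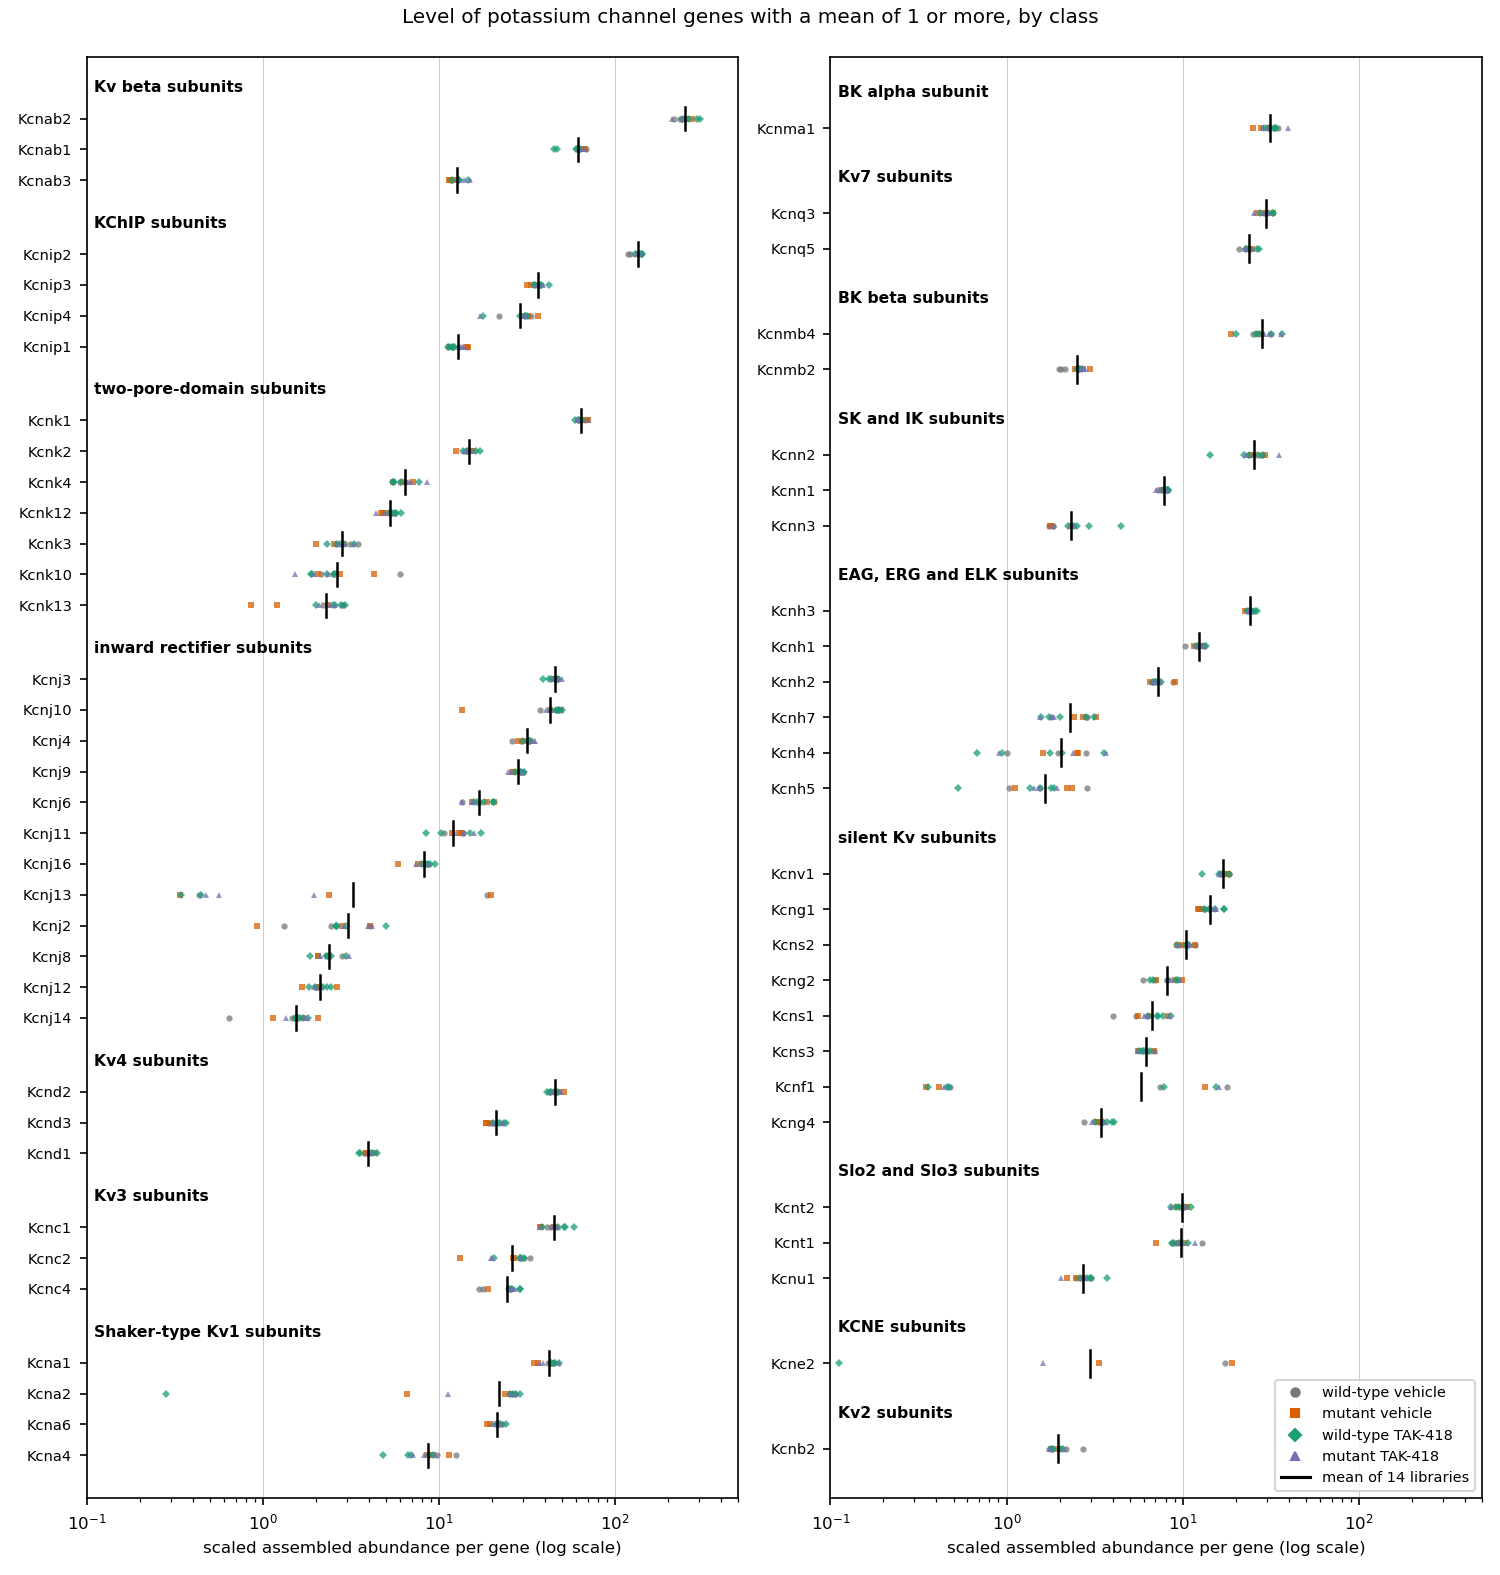
Scaled assembled abundance (log axis) of 63 of the 67 potassium channel genes with a mean of 1 or more, grouped by class; each point is 1 of 14 libraries, its colour and shape give the group, the black bar is the mean, and libraries at 0 are not drawn. Most genes span a narrow range, while Kcna2, Kcnf1, Kcnj10, Kcnj13 and Kcne2 each have libraries far from the rest.

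The Kv beta subunits, cytoplasmic partners of Kv1 channels, were the class with the highest summed level, 20.6% of the total. Kcnab2 was the most abundant member of all, with a mean of 250.2 and a range of 211 to 302. Kcnab1 had a mean of 61.4 and Kcnab3 one of 12.7. Their main pore partners were lower. Kcna1 had a mean of 42.3, Kcna2 of 21.8, Kcna6 of 21.4 and Kcna4, the subunit known for fast inactivation, of 8.68. Kcna5 was listed at 0.0413 in 1 library, the deeply sequenced wild-type TAK-418 replicate 1, and Kcna3, Kcna7 and Kcna10 in none. Summed over the class, Kv1 subunits made up 5.99% of the members' level.

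The KChIP subunits, calcium-binding partners of Kv4 channels, came next at 13.5%. Kcnip2 ranked second overall with a mean of 134 (range 119 to 142). Its range did not overlap that of Kcnab2 above it. Kcnip3 was at 36.3, Kcnip4 at 28.9 and Kcnip1 at 12.7. The pore partners Kcnd2 and Kcnd3 had means of 45.4 and 20.98, and Kcnd1 one of 3.95. Kcnip4 varied more than its relatives, from 17.2 to 36.5, with an SD of log2 level of 0.32 against 0.08 to 0.12 for the other 3 KChIP genes.

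Among the Kv7 subunits, Kcnq3 was at 29.6 and Kcnq5 at 23.8, and Kcnq1, best known from the heart, at 0.508 with 12 of 14 libraries listed. Other members among the 10 highest were Kcnk1 (64.2), Kcnab1 (61.4), Kcnj3 (45.4), Kcnd2 (45.4), Kcnc1 (44.7) and Kcnj10 (42.6), and the ranges of these neighbours in the order overlapped. Kcnj3 was above Kcnd2 in 6 of 14 libraries.

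The Kv3 subunits, which close fast and serve rapid firing, were listed in every library, Kcnc1 at 44.7, Kcnc2 at 26.1 and Kcnc4 at 24.4. Kcnb2, a Kv2 subunit, was at 1.97. Of the 10 silent Kv subunits, which form no channel alone and modify Kv2, 9 were listed, led by Kcnv1 at 16.9, Kcng1 at 14.3 and Kcns2 at 10.4. Among the EAG, ERG and ELK subunits, Kcnh3 (24.2) and Kcnh1 (12.4) were highest. Kcnh3 was also among the steadiest members, from 22.5 to 26.3.

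Inward rectifiers made up 12.5% of the members' level, with 13 of 15 listed. The G protein-gated subunits Kcnj3, Kcnj9 and Kcnj6 had means of 45.4, 28.1 and 17.0, and Kcnj5, the partner known from the heart, reached 0.508 at most and was listed in 3 libraries. Kcnj10, the astrocyte channel Kir4.1, was at 42.6 and its partner Kcnj16 at 8.20. The ATP-sensitive pore subunits Kcnj11, of neurons, and Kcnj8, of mural cells, were at 12.04 and 2.36. Kcnj4 and Kcnj2, classical strong rectifiers, were at 31.5 and 3.03. Kcnj1 and Kcnj15, known from the kidney, were listed in no library.

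Among the tandem-pore-domain leak channels, Kcnk1 had a mean of 64.2 (range 59.0 to 69.8), and Kcnk2, the mechanosensitive TREK-1, one of 14.7. Kcnk4 was at 6.42, Kcnk12 at 5.25, Kcnk3 at 2.81 and Kcnk10 at 2.62, while Kcnk15, Kcnk16 and Kcnk18 were listed in none. The BK pore gene Kcnma1 was at 31.5, close to its neuronal partner Kcnmb4 at 28.2. Kcnmb2 was at 2.52 and Kcnmb1, the smooth muscle partner, at 0.555. The SK subunits Kcnn2, Kcnn1 and Kcnn3 were at 25.5, 7.80 and 2.31, and the IK subunit Kcnn4 at 0.124. The sodium-activated Kcnt2 and Kcnt1 were at 9.86 and 9.75.

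Some close pairs differ in level although they lie within 100 kb of each other. Kcnj9 and Kcnj10 are 11.9 kb apart on chromosome 1 and run in opposite directions, and both were listed in all libraries. On chromosome 3, Kcna2 (mean 21.8) lies between Kcna3 and Kcna10, which were listed in none. On chromosome 6, Kcna1 and Kcna6 are 61.9 kb apart with means of 42.3 and 21.4. On chromosome 16, Kcne2 lies 47.9 kb from Kcne1, which was listed in none.

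Kcnu1, the Slo3 subunit known from sperm, was assembled in all 14 libraries with a mean of 2.73. The assembled transcripts had 8 or 9 exons and began at position 25911682 of chromosome 8 or later, in a gene annotated from 25849623 to 25937939. Of the 27 exons of the annotated transcript with the most exons, 20 end before that point. These libraries therefore hold assembled RNA of the last part of the gene only. The authors' group values for Kcnu1 in their deposited tables ranged from 2.06 to 2.42.

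The authors' deposited tables give 1 FPKM value per locus and group, and these were set beside the assembled levels. For each symbol the highest of the loci that hold it was taken, also where other genes share that locus. Group values were averaged over the tables that include the group. Of the 67 members with an assembled mean of 1 or more, 63 were within 2-fold of the authors' value, and the median ratio of assembled to authors' value was 1.29. Spearman's rho across these members was 0.956, as a description of 2 measures made from the same libraries. The exceptions were Kcng2, Kcnh4, Kcnh5 and Kcnk13. Kcnk13, a leak channel subunit of microglia, shares its locus in the authors' deposited tables with Tdp1, and had an authors' value of 11.8 against an assembled mean of 2.25 over the 4 group means. Kcna3, a Kv1 subunit of immune cells, was listed in no library but had an authors' value of 1.79 in the deposited tables. Kcng3, a silent subunit, was listed in 5 libraries, at 0.310 to 0.567, and its authors' value was 3.95.

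**Figure D2:**
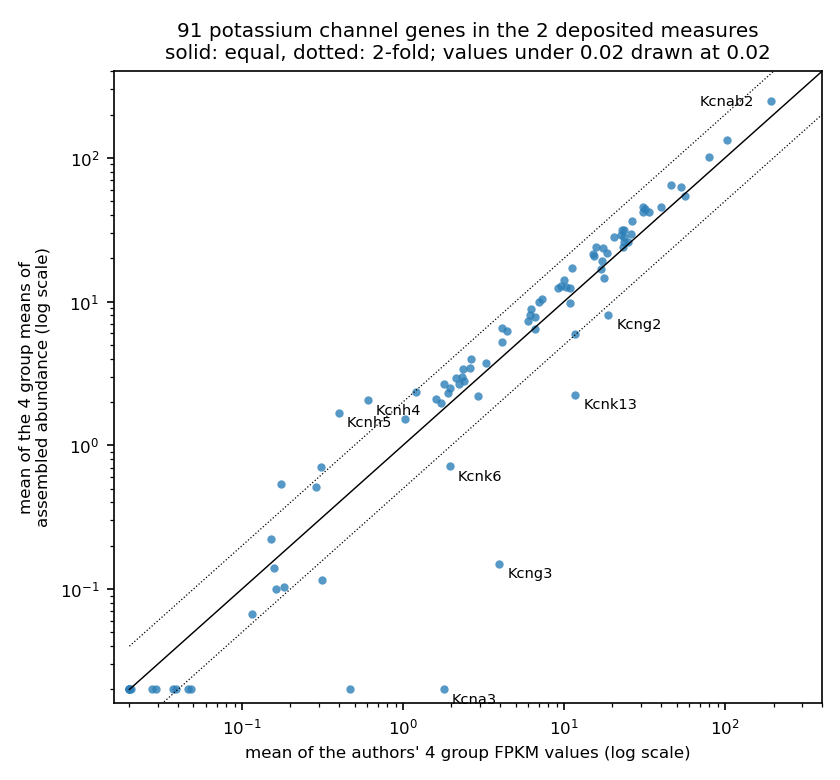
Mean of the 4 group means of assembled abundance against the mean of the authors' 4 group FPKM values for all 91 potassium channel genes, on log axes; each point is 1 gene, the solid line marks equality and the dotted lines 2-fold. Genes over 1 in either measure and outside the dotted lines are named, together with Kcnab2, the highest.

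Some members had a few libraries far from the others. Kcna2, an axonal Kv1 subunit, was at 25.2, 26.2 and 27.1 in wild-type vehicle, at 6.56, 23.8 and 25.7 in mutant vehicle, at 27.3, 28.7, 25.2, 26.4 and 0.282 in wild-type TAK-418, and at 27.0, 25.1 and 11.2 in mutant TAK-418 libraries. The low values lie in 3 groups, and the authors' values in the deposited tables were 17.6 to 18.9 over the 4 groups. In mutant vehicle replicate 1 the spliced transcripts ended at position 107106954 of chromosome 3, with a separate single-exon piece from 107107096, while in the other 2 low libraries they had the usual length. Kcnj10 was at 13.4 in the same library, where its transcript ended at position 172370832 of chromosome 1 and had 2013 bases. In the other 13 libraries it was at 37.3 to 49.6, with transcripts of 5113 to 5149 bases.

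Kcnf1, a silent subunit with a single-exon gene, was at 7.41 to 17.9 in 6 libraries and at 0 to 0.475 in 8. Both ranges contain libraries of all 4 groups. The authors' values for Kcnf1 in the deposited tables were 9.69 to 12.8. Kcnj11 was at 0 in wild-type TAK-418 replicate 2 and at 8.37 to 17.3 in the other 13 libraries. More generally, 25 members were assembled in more than 1 piece without overlap in at least 1 library, and this was so for 122 of 1004 gene and library values (12.2%). A sum over pieces counts each piece in full, so that a gene cut into pieces has a higher sum. Kcnh5 and Kcnh7 were in pieces in 13 of 14 libraries, Kcnn3 in 11 and Kcnh4 and Kcnq3 in 10.

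The study crosses genotype and treatment, and the comparisons ask whether the Kmt2d allele and the LSD1 inhibitor move gene levels in the hippocampus. Of the 91 members, 78 had a level in at least 3 libraries and were tested. The other 13 were 11 genes listed in no library and Kcna5 and Kcnk7, both listed only in wild-type TAK-418 replicate 1, the most deeply sequenced library. No member was called by limma at an adjusted p under 0.05 in any of 9 contrasts. Without wild-type vehicle replicate 2, 1 of 78 members was called for the TAK-418 effect in wild types. The share of all genes called in that refit is not given here, so this count has no background beside it. In the main fit over all 16569 genes tested, the share called was 0% for the genotype effect under vehicle and for vehicle mutants against treated wild types. It was 0.00604% for the TAK-418 effect in mutants, the TAK-418 effect in wild types, treated mutants against vehicle wild types, the interaction and the genotype effect over both treatments. It was 0.0121% for the genotype effect under TAK-418 and the TAK-418 effect over both genotypes. The contrasts share libraries and are not independent of each other, and the p-values measure the spread between mice.

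At an unadjusted p under 0.05 by limma, 6 of 78 members (7.69%, against 5.45% of all genes) passed for the genotype effect under vehicle, 1 higher in mutants (2.61% of all genes) and 5 lower (2.84%). For the genotype effect under TAK-418 it was 7 members (8.97% against 4.92%), 3 higher (2.41% of all genes) and 4 lower (2.52%). Over both treatments it was 10 members (12.8% against 5.85%), 1 higher (2.83% of all genes) and 9 lower (3.02%) in mutants. For the TAK-418 effect in mutants it was 6 members (7.69% against 4.39%), 5 higher (2.50% of all genes) and 1 lower (1.89%) after TAK-418. In wild types it was 11 (14.1% against 8.44%), 8 higher (5.16% of all genes) and 3 lower (3.28%), and over both genotypes 10 (12.8% against 8.26%), 7 higher (4.82% of all genes) and 3 lower (3.45%). Treated mutants against vehicle wild types gave 7 (8.97% against 5.39%), 5 higher (3.16% of all genes) and 2 lower (2.23%) in the mutants. In vehicle mutants against treated wild types 14 passed (17.9% against 9.23%), 2 higher (4.06% of all genes) and 12 lower (5.17%) in the mutants. The interaction gave 4 (5.13% against 4.44%), 0 higher (2.14% of all genes) and 4 lower (2.30%). The members' share was above that of all genes in each contrast, and these differences were not tested. The median log2 change of the members lay between -0.06 and 0.03 in the 9 contrasts.

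**Figure D3:**
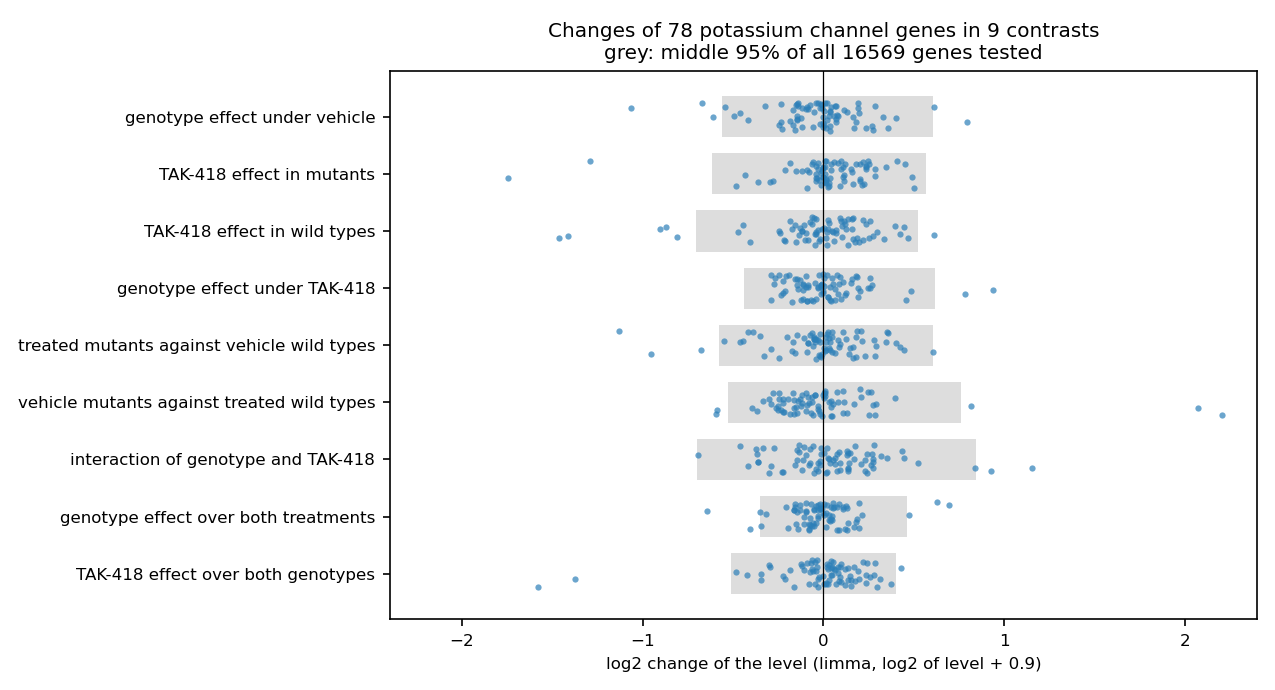
Log2 change of each of the 78 tested potassium channel genes (points, spread at random in height) in the 9 contrasts of the limma fit; the grey bars span the middle 95% of all 16569 genes tested. Most points lie inside the bars and near 0, and in the rows of vehicle mutants against treated wild types and of TAK-418 over both genotypes the points farthest out are Kcne2 and Kcnj13.

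Kcnd3 encodes Kv4.3, an A-type channel of interneurons and pyramidal cells. Its level was 20.4, 19.3 and 19.9 in wild-type vehicle, 18.4, 19.2 and 18.4 in mutant vehicle, 23.4, 24.0, 20.2, 22.3 and 21.7 in wild-type TAK-418, and 23.2, 22.9 and 20.3 in mutant TAK-418 libraries. In both genotypes the TAK-418 libraries were mostly higher: 6 of the 8 lay above all 6 vehicle libraries, and wild-type TAK-418 replicate 3 and mutant TAK-418 replicate 3 did not. The log2 difference over both genotypes was 0.20 ± 0.04 (SE, limma, unadjusted p = 0.000855, adjusted p = 0.257), so it did not pass. It was 0.23 ± 0.07 in mutants and 0.16 ± 0.06 in wild types, with adjusted p of 0.717 and 0.482 by limma. With the highest transcript only it was 0.039 ± 0.13 in mutants, 0.18 ± 0.12 in wild types and 0.11 ± 0.09 over both genotypes. The authors' values in the deposited tables were 14.8 and 14.7 in wild-type and mutant vehicle, and 15.9 in each TAK-418 group.

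Kcnd3 transcripts came in 2 forms, with and without an exon of 57 bases, the known long and short forms of Kv4.3. The exon is exon 5 of 7 in the annotated transcript that holds it, at chr3:105666962-105667018 on the plus strand of GRCm38, and it is shown here in capitals with 15 bases of the exons on each side, from the GENCODE M21 transcripts.
Kcnd3 exon 5: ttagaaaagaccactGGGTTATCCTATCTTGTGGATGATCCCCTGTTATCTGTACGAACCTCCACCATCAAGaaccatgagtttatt
The share of Kcnd3 abundance on transcripts with this exon was 26.7%, 31.1% and 31.4% in wild-type vehicle and 13.3%, 26.2% and 23.3% in mutant vehicle libraries. It was 41.9%, 24.6%, 25.5%, 25.5% and 18.7% in wild-type TAK-418, and 30.0%, 54.7% and 17.4% in mutant TAK-418 libraries. The short form carried most of the abundance in 13 of the 14 libraries, and the share in the TAK-418 groups overlapped with that in both vehicle groups. The ranges of the vehicle groups did not overlap, with less than 1 percentage point between the lowest wild-type and the highest mutant library. This difference was not tested. The counts behind these shares are unknown, so no interval is given.

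Kcng1, a silent subunit that joins Kv2 channels, was also mostly higher after TAK-418. It was at 13.2, 13.4 and 14.2 in wild-type vehicle, 12.4, 12.2 and 12.6 in mutant vehicle, 13.3, 17.2, 17.1, 14.03 and 15.2 in wild-type TAK-418, and 15.4, 15.3 and 15.3 in mutant TAK-418 libraries. All 3 treated mutants were above all 6 vehicle libraries, while 2 treated wild types were within the vehicle range. The log2 difference over both genotypes was 0.22 ± 0.06 (SE, limma, adjusted p = 0.351). In the authors' deposited tables the values were 9.52 and 8.76 under vehicle and 11.1 and 10.7 under TAK-418, for wild types and mutants in turn.

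Kcnmb2 encodes a BK beta subunit that inactivates the channel. Its level was 1.98, 2.15 and 2.04 in wild-type vehicle, 2.45, 2.97 and 2.70 in mutant vehicle, 2.56, 2.61, 2.57, 2.67 and 2.499 in wild-type TAK-418, and 2.63, 2.79 and 2.72 in mutant TAK-418 libraries. The 3 wild-type vehicle libraries were below the other 11, with no overlap. Against wild-type vehicle, the log2 difference was 0.29 ± 0.07 in vehicle mutants (SE, limma, adjusted p = 0.627), 0.24 ± 0.07 in treated wild types (adjusted p = 0.344) and 0.29 ± 0.07 in treated mutants (adjusted p = 0.579). These 3 values rest on the same 3 wild-type vehicle libraries. The TAK-418 effect in mutants was 0.01 ± 0.07. In the authors' deposited tables the wild-type vehicle value was also the lowest, 1.66 against 2.20, 1.94 and 2.00.

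Kcnk12, a tandem-pore-domain subunit that gives little or no current alone, and Kcnj9, a G protein-gated subunit, had lower means in the mutants under both treatments. Kcnk12 was at 5.33, 5.65 and 5.46 in wild-type vehicle and 4.97, 4.80 and 4.69 in mutant vehicle, and at 5.66, 5.62, 5.38, 5.22 and 6.10 in wild-type TAK-418 and 5.29, 4.89 and 4.41 in mutant TAK-418 libraries. Only mutant TAK-418 replicate 1 reached the wild-type range. The log2 difference over both treatments was -0.17 ± 0.05 (SE, limma, adjusted p = 0.729), and the authors' values in the deposited tables were 4.43 and 4.53 in wild types against 3.75 and 3.86 in mutants. Kcnj9 was at 30.1, 29.8 and 29.2 in wild-type vehicle, 26.1, 26.4 and 28.1 in mutant vehicle, 29.1, 29.3, 28.4, 27.1 and 30.3 in wild-type TAK-418, and 25.7, 29.4 and 24.6 in mutant TAK-418 libraries. Under vehicle the genotypes did not overlap, and under TAK-418 they did. The difference over both treatments was -0.13 ± 0.04 on the log2 scale (SE, limma, adjusted p = 0.793).

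Kcna4, the fast-inactivating Kv1 subunit of axons, had a TAK-418 effect of the opposite sign to that of Kcnd3. It was at 12.5, 8.80 and 9.75 in wild-type vehicle, 11.5, 9.27 and 8.504 in mutant vehicle, 4.83, 6.94, 6.70, 9.20 and 8.71 in wild-type TAK-418, and 8.22, 9.49 and 7.13 in mutant TAK-418 libraries, so the ranges overlap. The TAK-418 effect over both genotypes was -0.34 ± 0.13 (log2, SE, limma, adjusted p = 0.547). Kcnab2, the most abundant member, had the smallest p for the interaction, with a log2 value of -0.37 ± 0.12 (SE, limma, unadjusted p = 0.0101, adjusted p = 0.977). Its level was 216 to 239 in wild-type vehicle, 248 to 273 in mutant vehicle, 238 to 302 in wild-type TAK-418 and 211 to 243 in mutant TAK-418 libraries. Mutants were above wild types under vehicle, and under TAK-418 the ranges overlapped with the mutants lower.

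**Figure D4:**
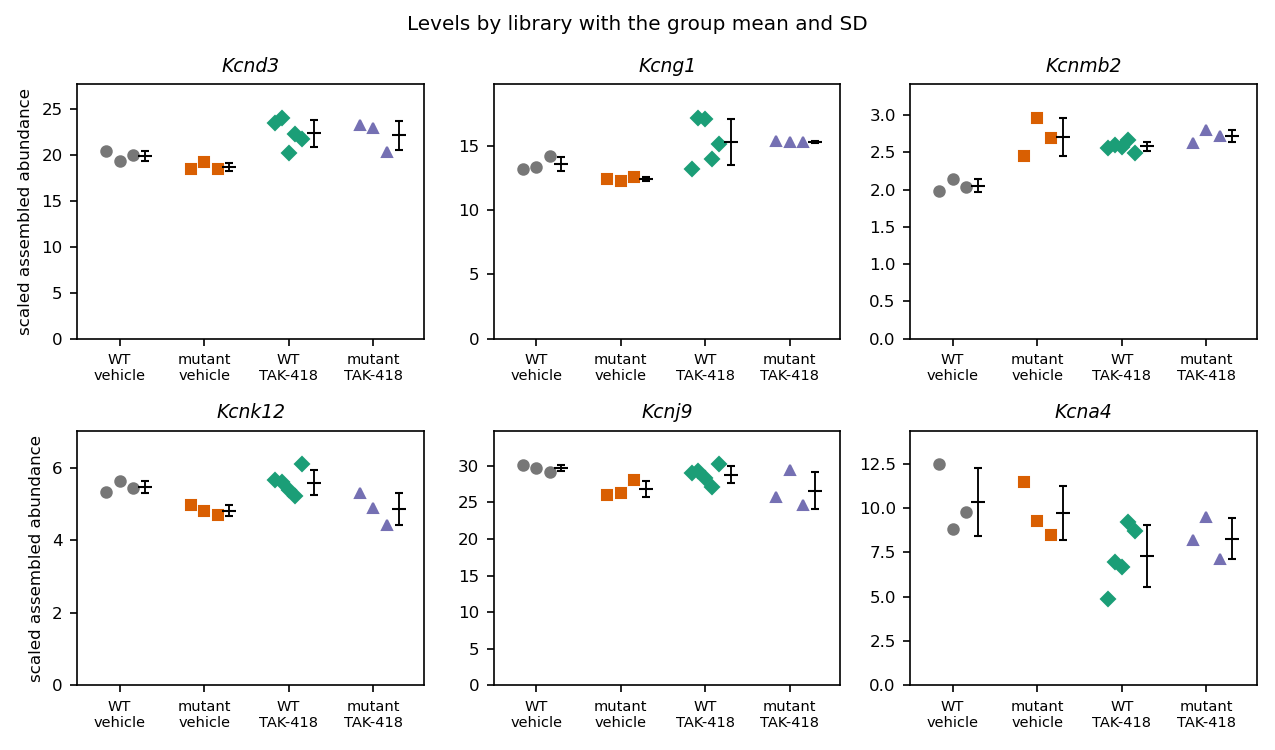
Level (scaled assembled abundance, axis from 0) of Kcnd3, Kcng1, Kcnmb2, Kcnk12, Kcnj9 and Kcna4 in each library by group (WT is wild type), with the group mean and SD beside the points. Kcnmb2 is lowest in all 3 wild-type vehicle libraries, Kcnd3 and Kcng1 sit mostly higher after TAK-418, and the ranges of Kcna4 overlap.

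For several members the length or number of the assembled pieces differed along with the level. The change with each abundance weighted by its length is given beside the main one. That setting also scales by the library total and uses another pseudocount, so the part of the piece length was not tested. Kcnc4, a Kv3 subunit, was at 17.8, 25.4 and 16.8 in wild-type vehicle, 19.0, 25.01 and 24.8 in mutant vehicle, 25.9, 28.7, 28.9, 25.7 and 24.8 in wild-type TAK-418, and 25.4, 27.1 and 26.4 in mutant TAK-418 libraries. The low libraries were wild-type vehicle replicates 1 and 3 and mutant vehicle replicate 1, where the 4-exon transcripts had 4062 to 4208 bases against 2543 to 3125 in the others. The TAK-418 effect in wild types was 0.42 ± 0.12 (log2, SE, limma, adjusted p = 0.374), and weighting by length gave -0.11 ± 0.10. Kcnab1 was at 46.6 and 44.7 in wild-type TAK-418 replicates 1 and 3, with 14-exon transcripts of 4684 and 4692 bases, and at 59.8 to 68.4 in the other 12, with 3022 to 3262 bases. Its genotype difference under TAK-418 was 0.26 ± 0.10 (log2, SE, limma, adjusted p = 0.926), and 0.0053 when weighted by length. Kcnh7, an ERG subunit, was at 1.54 to 3.24 and in more than 1 piece in 13 of 14 libraries, and its TAK-418 effect in mutants, -0.48 ± 0.20 (log2, SE, limma, adjusted p = 1.00), became 0.80 ± 0.66 when weighted by length.

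Kcnk13 was at 1.199 and 0.858 in mutant vehicle replicates 1 and 3 and at 2.00 to 2.92 in the other 12 libraries. The genotype effect under vehicle was -0.61 ± 0.19 (log2, SE, limma, adjusted p = 0.693). In mutant vehicle replicate 1 the transcript had 878 bases, against 2631 to 3960 elsewhere, including mutant vehicle replicate 3. Weighting each abundance with its length gave -1.21 ± 0.38, and the highest transcript only gave -0.38 ± 0.27 (log2, SE, limma, adjusted p = 0.748 and 0.996). Over 27 alternatives the difference lay between -1.21 and -0.15. Kcnj4, Kcnj6, Kcnk4, Kcns1 and Kcng2 complete the members with the smallest p per contrast and direction. Their log2 differences there lay between -0.46 and 0.33, with adjusted p by limma from 0.765 to 1.00. Not all of these values held under other settings. Kcns1, at 0.33 for the genotypes under vehicle, was at 0.18 without wild-type vehicle replicate 2 and at 0.20 without mutant vehicle replicate 1. Weighting by length turned the sign of Kcnj6, whose 4-exon form in mutant vehicle replicate 1 was assembled at 2936 bases against 15121 to 15785 elsewhere, and of Kcnk4.

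Kcne2 and Kcnj13 were among the members that differed most between libraries, and both are known channels of the choroid plexus epithelium, which secretes cerebrospinal fluid beside the hippocampus. The bases upstream of their transcription starts are shown because both genes were high in the same libraries. They come from RefSeq (GRCm38.p6) and give the 250 bases before the start, with capitals where letters of a TATA box, a CAAT box or the core site of OTX2, a choroid plexus transcription factor, were matched on either strand. The first line is chr1:87394730-87394979 on the minus strand, and the second chr16:92292139-92292388 on the plus strand, the more upstream of 2 starts listed for Kcne2.
Kcnj13: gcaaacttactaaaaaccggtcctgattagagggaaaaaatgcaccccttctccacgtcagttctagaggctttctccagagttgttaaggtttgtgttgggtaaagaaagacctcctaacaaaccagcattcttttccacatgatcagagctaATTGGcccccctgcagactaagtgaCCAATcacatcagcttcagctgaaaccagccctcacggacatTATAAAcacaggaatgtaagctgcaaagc
Kcne2: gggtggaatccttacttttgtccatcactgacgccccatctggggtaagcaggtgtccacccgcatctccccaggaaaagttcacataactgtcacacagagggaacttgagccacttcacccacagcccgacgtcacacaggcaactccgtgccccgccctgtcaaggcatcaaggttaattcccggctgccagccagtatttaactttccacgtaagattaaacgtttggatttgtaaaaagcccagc
The Kcnj13 window holds TATAAA with its first base 29 bases before the start, CCAAT 71 bases and its reverse complement ATTGG 96 bases before it. The Kcne2 window holds none of the motifs. Over 32851 promoter windows of the same length, 12.4% held TATAAA or its reverse complement. The CAAT box letters CCAAT were in 33.8% and the OTX2 core letters TAATCC in 6.25%, on either strand. The assembled Kcne2 transcripts began at position 92292423 of chromosome 16 in 4 of the 5 libraries that listed it, and at 92292461 in the other. The assembled Kcnj13 transcript of mutant vehicle replicate 1 began at position 87394790 of chromosome 1, inside the window shown and upstream of its TATAAA. In the other libraries that listed Kcnj13 the transcript began at 87394712 or further downstream.

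Kcne2 was at 0, 0 and 17.3 in wild-type vehicle, 19.2, 0 and 3.36 in mutant vehicle, 0.111, 0, 0, 0 and 0 in wild-type TAK-418, and 1.61, 0 and 0 in mutant TAK-418 libraries. Kcnj13 was at 0, 0.434 and 18.7, at 19.7, 0.337 and 2.38, at 0.445, 0, 0, 0 and 0.342, and at 1.95, 0.473 and 0.566 in the same groups. Both were highest in wild-type vehicle replicate 3 and mutant vehicle replicate 1, followed by mutant vehicle replicate 3 and mutant TAK-418 replicate 1. Ttr, the transthyretin gene and an abundant choroid plexus product, was at 6369, 4906, 884 and 590 in those 4 libraries and at 6.48 to 36.2 in the other 10. Cldn2 and Tmem72, both markers of that epithelium, were listed in the same 4 libraries and at 0 in the other 10. All 14 genes of the choroid plexus list were listed in some library and 7 of them in all. The part of choroid plexus RNA in the group differences of Kcne2 and Kcnj13 was not tested.

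**Figure D5:**
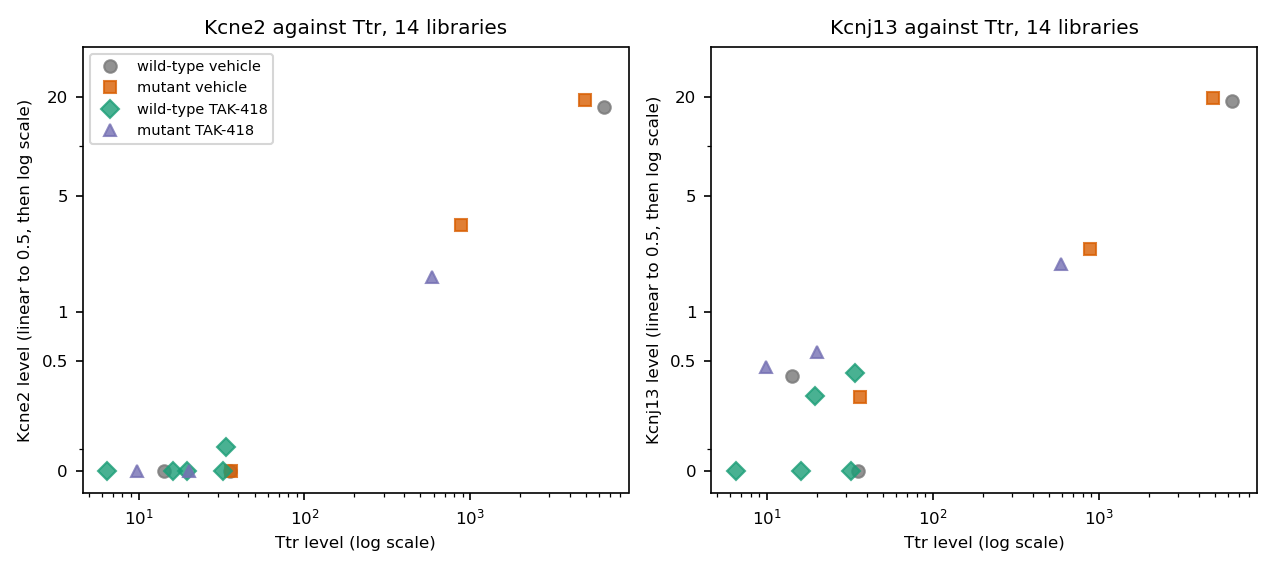
Level of Kcne2 (left) and Kcnj13 (right) against the level of Ttr in the 14 libraries; the horizontal axis is logarithmic, the vertical axis is linear up to 0.5 and logarithmic above, and colour and shape give the group. The 4 libraries with Ttr above 500 have the 4 highest levels of both genes, and come from 3 of the 4 groups.

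In the limma fit neither gene was called. Set against treated wild types, vehicle mutants had a log2 difference of 2.21 ± 1.05 for Kcne2 and of 2.07 ± 0.98 for Kcnj13 (SE, limma, adjusted p = 0.553 for both). Without wild-type vehicle replicate 3 and mutant vehicle replicate 1 it was 1.09 ± 0.55 and 0.96 ± 0.41 (limma, adjusted p = 0.777 and 0.724). The TAK-418 effect in wild types went from -1.41 ± 1.05 to 0.03 ± 0.55 for Kcne2, and from -1.46 ± 0.98 to -0.08 ± 0.41 for Kcnj13, when those 2 libraries were left out. The vehicle mutants left in that fit were replicates 2 and 3, with Kcne2 at 0 and 3.36 and Kcnj13 at 0.337 and 2.38. Replicate 3 is itself raised in summed choroid plexus markers, at 1109.5 against 117 in replicate 2. The part of choroid plexus RNA in the remaining difference of the vehicle mutants was not tested.

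Kcne2 was the only member called in the authors' deposited tables at a q-value under 0.05. In their table of mutant vehicle against wild-type TAK-418, Kcne2 was at 5.50 against 0.129 FPKM (q = 0.00995), 1 of 82 tested member loci, where 0.611% of all tested loci passed. In the authors' deposited table of mutant TAK-418 against wild-type vehicle it was at 0.457 against 4.34 FPKM (q = 0.0185), 1 of 82, with 0.324% of all loci called. The authors' deposited tables called 0 member loci for mutant vehicle against wild-type vehicle (81 member loci tested, 0.224% of all called) and mutant TAK-418 against wild-type TAK-418 (84 tested, 0.218%), where the q-values of Kcne2 were 1.00 and 0.119. In both tables that call it, the higher group holds a library with Ttr at 4906 or 6369. These tables give 1 value per group, so the libraries cannot be left out singly. Kcnj13 had a p-value of 0.0411 and a q-value of 0.695 in the authors' deposited table of mutant vehicle against wild-type TAK-418, with 6.56 against 0.291 FPKM.

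At an unadjusted p under 0.05, the authors' deposited tables list 11 of 82 member loci (13.4%, against 6.48% of all loci) for mutant vehicle against wild-type TAK-418. They list 5 of 82 (6.10% against 4.49%) for mutant TAK-418 against wild-type vehicle, 3 of 84 (3.57% against 4.10%) for the genotypes under TAK-418 and 3 of 81 (3.70% against 4.32%) under vehicle. Members other than Kcne2 with small p-values there were not called. Kcnf1 was at 9.70 in mutant vehicle against 12.1 in wild-type TAK-418 (q = 0.0813) and 9.68 against 12.8 in wild-type vehicle (q = 0.148). Kcnk10 was at 1.49 in mutant TAK-418 against 2.14 in wild-type vehicle (q = 0.123 in the authors' deposited table). By library, Kcnk10 was at 5.99 in wild-type vehicle replicate 3 and 4.27 in mutant vehicle replicate 1, the libraries high in choroid plexus markers, and at 1.52 to 2.74 in the other 12. The log2 difference between these groups was -0.55 ± 0.28, and -0.19 ± 0.16 without the 2 libraries (SE, limma, adjusted p = 0.946 and 0.987). Kcnj2 was at 2.59 FPKM in mutant against 2.17 in wild-type TAK-418 (q = 0.808 in the authors' deposited table). Under vehicle it was at 2.58 FPKM in mutants against 1.98 in wild types (q = 0.511 in the authors' deposited table). The assembled level of Kcnj2 had equal means under vehicle, 2.59 in mutant and 2.60 in wild-type libraries. Under TAK-418 these means were 3.66 and 3.16. Kcnj2 was in more than 1 piece in 7 libraries.

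Markers of other cell classes among the members showed no called difference. Kcnj10 and Kcnj16, of astrocytes, had log2 genotype differences over both treatments of -0.32 ± 0.23 and -0.16 ± 0.07 (SE, limma, adjusted p = 0.882 and 0.842). Without the 2 libraries high in choroid plexus markers, these were 0.00065 ± 0.065 and -0.095 ± 0.057, and without mutant vehicle replicate 1 alone Kcnj10 was at -0.033 ± 0.066. Both were lowest in mutant vehicle replicate 1, Kcnj16 at 5.81 against 7.35 to 9.47 elsewhere. The summed astrocyte markers of that library, 1340, lay within the range of 1227.5 to 1509.6 over the 13 libraries that list Aldoc, one of these markers. Aldoc itself was at 484 there, a large part of the sum. Among the single markers, Aqp4 (40.9), Gja1 (96.1) and Slc1a2 (293) were lowest in that library. Aldoc, Aldh1l1, Slc1a3, Gfap and Slc4a4 were not. The part of astrocyte RNA in these levels was not tested. Wild-type TAK-418 replicate 1, at 994, has Aldoc at 0. Kcnj8, of mural cells, stayed between 1.84 and 3.07. Kcnc1, of fast-spiking interneurons, was at 37.2 to 58.1, with its highest value in wild-type TAK-418 replicate 1.

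The proteins that work with these channels were followed by a list of 28 partner genes, of which 26 were tested and 0 were called by limma in any of the 9 contrasts. Lrrc26 and Lrrc52, BK partners, were listed in no library. At an unadjusted p under 0.05 by limma, the genotype effect gave 2 of the 26 under vehicle (5.45% of all genes). It gave 3 under TAK-418 (4.92%) and 1 over both treatments (5.85%), all lower in mutants. The TAK-418 effect gave 0 in mutants (4.39%), 2 in wild types (8.44%) and 2 over both genotypes (8.26%), all higher. Treated mutants against vehicle wild types gave 1 (5.39%), vehicle mutants against treated wild types 3 (9.23%) and the interaction 1 (4.44%), all lower. These differences were not tested. The smallest p was that of Cntn2, the adhesion protein that holds Kv1 channels beside the nodes of Ranvier. Its level was 20.3, 23.6 and 26.0 in wild-type vehicle, 18.3, 18.1 and 19.8 in mutant vehicle, 21.02, 22.8, 21.7, 24.1 and 25.1 in wild-type TAK-418, and 19.0, 19.6 and 20.3 in mutant TAK-418 libraries. The range of the 6 mutants lay below 7 of the 8 wild types and included wild-type vehicle replicate 1. The genotype difference over both treatments was -0.25 ± 0.06 (log2, SE, limma, adjusted p = 0.576). Dlg4, the scaffold PSD-95, was at 306 to 320 in wild-type TAK-418 and at 276 to 289 in wild-type vehicle libraries (log2 difference 0.15 ± 0.04, SE, limma, adjusted p = 0.280), and at 280 to 305 in mutants of either treatment.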

How the data were processed

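RNA of 14 hippocampi was sequenced. Per the file headers, the authors assembled each library with CLASS 2.1.7. The submitters' processing notes name mm10, FastQC and TopHat2 2.1.0. The deposited abundance per transcript has no stated unit. The authors also deposited tables of 81411 loci with FPKM per group, log2 fold changes, p-values and q-values.

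Here transcripts were assigned to GENCODE M21 genes by a shared intron, or by 50% exon overlap if single-exon. Abundances were summed and scaled by the median of ratios over 13273 genes. Genes with a level in 3 or more libraries were tested as log2(level + 0.9), which understates changes of low genes, with limma 3.58.1 (lmFit, eBayes with trend, R 4.3.3), 4 group means and Benjamini-Hochberg adjustment. The limma step was also run on simulated data, with changes larger than most of the named changes here. That run says nothing of how often changes of the named sizes would be called. Reads shared by near-identical or overlapping genes cannot be divided here. Python 3.11.15 made the rest.

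Groups follow the labels, and replicate numbers are names only. Members, gene lists and the rule for named genes (highest per class, smallest p per contrast and direction, members called or with the smallest p in the authors' tables, largest SD, cell class markers) were chosen with earlier results of these data known. A few members, and results that need them, are not reported here. Alternatives were other pseudocounts, scalings, filters, transcript choices and fits, sex as a covariate, and leaving out libraries.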

Additional observations from a re-analysis of the deposited data

Results flagged for a closer look

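Among the 5 wild-type TAK-418 libraries, the highest or lowest library of 5 members lay far from the other 4 (a gap of over 0.710 of the range). Of 47 members examined, chance alone gives about 1 such case in 20. Kcna2 was at 0.282 in replicate 5, where the nearest other library was at 25.2. Kcne2 was at 0.111 in replicate 1 and at 0 in the other 4. With those 4 at 0, any value above 0 is flagged, so the chance rate does not apply to Kcne2. Kcnk4 was at 7.65 in replicate 3, with the next library at 6.08. Kcnj4 was at 29.8 in replicate 1, which is the most deeply sequenced library, with the next at 32.0. Kcnj2 was at 5.01 in replicate 4, with the next at 2.97.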

How the results depend on the processing

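The limma count of called members was 0 in each contrast, and such a count says little of stability. Leaving out each replicate in turn gave 0 to 1 calls for the TAK-418 effect in wild types (1 without wild-type vehicle replicate 2) and 0 in the other 8 contrasts. The shares of all genes called in these refits are not given here. At a q-value under 0.01, the authors' table of mutant TAK-418 against wild-type vehicle called 0 member loci. Of 853 recomputed log2 changes of named members, 844 kept their direction and side of the threshold. When abundance was weighted by length, the sign turned for Kcnh7 (TAK-418 effect in mutants 0.80, over both genotypes 0.72), Kcnj6 (TAK-418 effect in mutants 0.57, interaction 0.41), Kcnc4 (TAK-418 effect in wild types -0.11), Kcnk4 (genotype effect under TAK-418 -0.0095) and Kcnab1 (vehicle mutants against treated wild types -0.0034). With the highest transcript only, it turned for Kcnk4 (-0.048) and Kcnh7 (TAK-418 effect over both genotypes 0.011). The cause was not tested. No scaling moved the median change of all genes by over 0.1. A fit of only the groups compared was not run for the interaction and the 2 averaged contrasts, which use all groups. No paired analysis was possible because replicate numbers only name the mice. The counts behind the abundances are not known, so depth limits the low members in a way that cannot be given as an interval.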
